A study of Mus musculus with 6 samples.

Results

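The genes described here are 10 interferon-stimulated genes of the mouse prefrontal cortex, namely Irf7, Stat2, Ifih1, Isg15, Usp18, Ifit1, Ifit2, Ifit3, Oasl2 and Eif2ak2. They were taken by symbol from a table of read counts for 23284 genes, and all 10 had a row and passed the filter on low counts. They were put together as classical type I interferon targets, with earlier results of these data known, because some of them lay higher and others lower after single housing. The libraries came from wild-type C57BL/6 mice (C57BL/6J in the growth protocol) aged 8 to 10 weeks, of which 3 libraries were from mice housed singly and 3 from mice housed in groups for 6 days. The labels name no transgene and no agent, and housing was the difference between the groups. Whether a library stands for 1 mouse or a pool is not stated, and p-values therefore reflect the spread among these samples, some of which may be technical. The series is titled after interferon-gamma in social behaviour and neuronal connectivity, and the comparison asks how housing relates to expression in this region.

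Type I interferons are secreted proteins that bind a receptor of the subunits Ifnar1 and Ifnar2, on which the kinases Jak1 and Tyk2 activate transcription factors, Stat2 among them. Stat2 and Irf9 are part of a complex that binds interferon-stimulated response elements in promoters and switches on antiviral genes. Interferon-gamma acts through another receptor and through gamma-activated sequences in promoters, and many genes respond to both. In brain, microglia and endothelial cells are known for strong responses, while neurons and astrocytes also express some of these genes at rest.

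Promoter sequences are shown first because the response element is the site at which the complex of Stat2 and Irf9 acts. Windows from 250 bases before to 50 bases after each RefSeq transcription start (build GRCm38.p6, whereas the count table is in mm9) were matched by symbol for 9 of the 10 genes, with 2 windows for Ifit2. No window was matched for Usp18. The core of the response element, searched on both strands as GAAA, any 2 bases and GAAA again, was present in 6 of the 9 genes, against 3.99% of 27025 genes with a window and 3.44% of the 32851 windows. Of 70 other genes of the interferon pathway lists with a window, 25 held it (35.7%). Isg15 held 3 overlapping copies, and Ifit1 and Ifit3 held 2 each on the opposite strand, where the core reads TTTC, any 2 bases and TTTC. The first 3 sequences below carry these copies, in capitals, and the next 2, Irf7 and Oasl2, are the genes with the largest differences by housing and had no copy in their windows. All 5 run 5′ to 3′ on the gene's strand from base −160 to base −41 relative to the start.
Isg15, chr4:156200859-156200978, minus strand: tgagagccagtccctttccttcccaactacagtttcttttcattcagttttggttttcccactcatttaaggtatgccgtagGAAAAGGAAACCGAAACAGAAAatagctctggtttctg
Ifit1, chr19:34640729-34640848, plus strand: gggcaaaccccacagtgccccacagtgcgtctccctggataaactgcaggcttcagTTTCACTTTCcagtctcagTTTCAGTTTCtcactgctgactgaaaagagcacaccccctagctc
Ifit3, chr19:34583369-34583488, plus strand: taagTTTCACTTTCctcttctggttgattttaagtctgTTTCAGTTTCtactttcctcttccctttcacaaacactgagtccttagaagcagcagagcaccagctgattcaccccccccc
Irf7, chr7:141266465-141266584, minus strand: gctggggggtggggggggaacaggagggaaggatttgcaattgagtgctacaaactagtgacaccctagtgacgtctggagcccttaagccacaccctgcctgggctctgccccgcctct
Oasl2, chr5:114896774-114896893, plus strand: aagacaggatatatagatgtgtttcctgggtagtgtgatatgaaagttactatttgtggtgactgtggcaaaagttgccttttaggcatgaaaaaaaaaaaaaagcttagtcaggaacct

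The other 3 genes with the core had 1 copy each, at another distance from the start, and each is shown as a stretch of 30 bases. In Stat2 the copy ran from base −222 to −213. In Eif2ak2 and Ifih1 it lay after the start, at bases 19 to 28 and 33 to 42.
Stat2, chr10:128270266-128270295, plus strand: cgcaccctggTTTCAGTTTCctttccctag
Eif2ak2, chr17:78882535-78882564, minus strand: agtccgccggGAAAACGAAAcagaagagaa
Ifih1, chr2:62646206-62646235, minus strand: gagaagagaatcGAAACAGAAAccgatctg

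The gamma-activated sequence TTCNNNGAA, which reads the same on both strands, was found in 2 of the 9 genes, Eif2ak2 and Ifit2, against 9.55% of all genes with a window. Of the 70 other pathway genes with a window, 20 held it (28.6%). These matches describe letters in a window only, and 3 genes without the response element core (Irf7, Oasl2 and Ifit2) may hold it elsewhere.

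Total counts were 32902303 to 33428512 in the single-housed and 25858355 to 32088512 in the group-housed libraries. The labelled tissue was checked against 8 cortical neuron markers, which summed to 3224 to 3462 CPM (a count per scaled library total, as in all levels below) in the single-housed libraries, against 3214 to 3517 CPM in the group-housed ones. The 14 markers of the striatum, which lies under the frontal cortex, were uneven, with sums of 294 to 1897 CPM after single housing and 327 to 874 CPM after group housing. Single-housed replicates 1 and 2 and group-housed replicate 1 had the high values. The 8 oligodendrocyte markers were also uneven, with sums of 1961 to 4125 CPM after single housing and 1932 to 5251 CPM after group housing. Differences are log2 values, single-housed minus group-housed, from edgeR's quasi-likelihood test fitted across 15258 genes, with p-values adjusted by Benjamini-Hochberg over all of them. Levels in CPM are scaled by TMM, which corrects library totals for composition. All 14 striatal markers were higher after single housing, with a median log2 difference of 1.015, and none had an adjusted p under 0.05.

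None of the 10 genes passed the threshold of 0.05 (edgeR, adjusted p = 0.9999 for each), and 0% of the 15258 genes did. At an unadjusted p under 0.05 there was 1 gene, Irf7, which was lower, against 1.56% of all genes (0.832% higher and 0.727% lower). Irf7 was not under that level in 8 of 15 alternative analyses, with unadjusted p-values of 0.00844 to 0.104 over the 15, among them 4 of the 6 that left out 1 library (single-housed replicate 1 or 3, group-housed replicate 1 or 3). Oasl2 was under it in 2 of the 15, without replicate 2 of either group. Over all genes tested, 128 of 15330 were under it without single-housed replicate 2 and 806 of 15430 without group-housed replicate 2. With the mean of the striatal markers as a covariate, which gave Irf7 its lowest p, 429 of 15258 were. The main analysis had 238 of 15258. DESeq2 and limma-voom also called 0 of the 10. The 10 genes split evenly, with 5 higher and 5 lower and a median log2 difference of 0.03. The median over all genes tested was 0.00 (7739 higher and 7519 lower). Genes of both signs were part of the choice, so nothing is read from this split. Single-housed libraries were all below group-housed ones for Irf7 and Isg15, all above for Eif2ak2, and overlapped for the other 7. Groups that did not overlap were thus seen in 3 of 10 genes, against 4.86% of all genes tested (2.46% with the single-housed libraries above and 2.40% below), and since the genes were chosen with these results known, nothing is read from that share. The count was 6 without single-housed replicate 2 (8.99% of all genes tested) and 5 without single-housed replicate 3 (13.5% of all genes tested). With 1 library fewer, groups fail to overlap more often by construction. In tissue RNA, fewer cells of a type and less RNA per cell cannot be told apart.

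**Figure D1:**
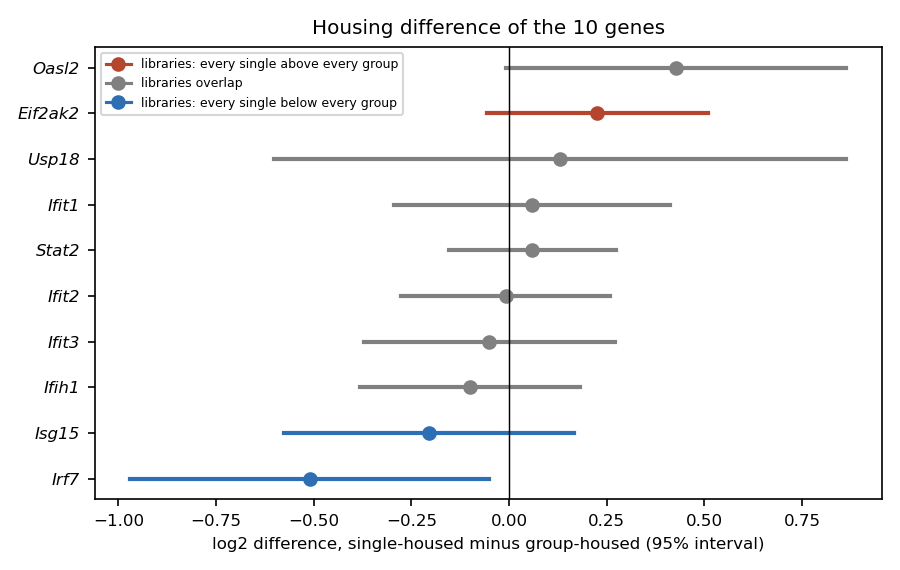
Log2 difference of each gene (horizontal axis, single-housed minus group-housed), with the point estimate and its 95% interval from edgeR's quasi-likelihood fit (n = 3 each); colour shows whether the libraries of the groups overlap. Irf7 at −0.51 and Oasl2 at 0.43 lie at the ends, and only the unadjusted interval of Irf7 leaves out 0.

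Levels were compared between genes per kilobase of exon, as CPM divided by the deposited exon length. Stat2 was the most abundant of the 10, with 7.46 ± 0.539 CPM per kilobase (SD over the 6 libraries). Ifit2 followed with 2.92 ± 0.262, Ifit3 with 2.57 ± 0.260 and Isg15 with 2.28 ± 0.202 CPM per kilobase. Library values of these 3 overlapped between neighbours, while those of Stat2 stood clear above them. Irf7 had 1.12 ± 0.280, Ifih1 0.926 ± 0.0671, Eif2ak2 0.903 ± 0.0829, Ifit1 0.776 ± 0.0421 and Oasl2 0.752 ± 0.161 CPM per kilobase. Usp18 was lowest, with 0.476 ± 0.133 CPM per kilobase. From Irf7 down, each gene's library values overlapped those of its neighbour, and all lay below those of Isg15.

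**Figure D2:**
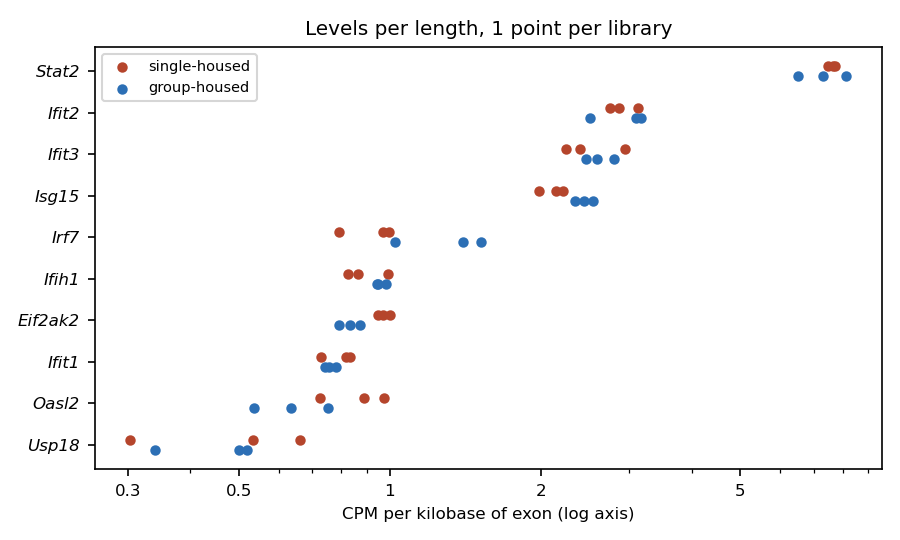
Level of each gene in CPM per kilobase of exon (horizontal log axis), 1 point per library, single-housed above group-housed in each row. Stat2, at 6.53 to 8.13, is clear of the other 9 genes, and a second gap separates Isg15, at 1.98 to 2.54, from Irf7, at 0.791 to 1.52.

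Almost no reads were counted for the ligands of the pathway. Of 16 type I interferon genes, 13, Ifnb1 among them, had 0 counts in all 6 libraries, and the other 3 had 1 count in 1 library each. A count of 0 allows up to 3 counts, or 0.0897 to 0.116 CPM of the total depending on the library, which covers counting error only. It does not cover reads shared by genes of like sequence, which may have been dropped. The receptor and its kinases were present at like levels in both groups. Ifnar1 had 57.1 ± 1.88 CPM after single housing and 57.0 ± 2.04 CPM after group housing (SD, n = 3 each). Its log2 difference was 0.00 (SE 0.0672) with a 95% interval of −0.15 to 0.15. Ifnar2 had a log2 difference of 0.01 (SE 0.108) and Tyk2, the kinase with the smallest p, one of 0.10 (SE 0.101).

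Irf7 encodes the transcription factor that amplifies type I interferon production and is itself induced by interferon. Its gene lies on chromosome 7 (148449082 to 148452323, mm9, minus strand). It had 1.80, 1.85 and 1.47 CPM in single-housed replicates 1, 2 and 3, against 2.82, 1.90 and 2.60 CPM in group-housed replicates 1, 2 and 3. Every single-housed library was below every group-housed one, but single-housed replicate 2 and group-housed replicate 2 were almost level, at 62 and 58 raw counts before scaling. The log2 difference was −0.51 (SE 0.202, 95% interval −0.97 to −0.05, n = 3 each; edgeR unadjusted p = 0.0329, adjusted p = 0.9999). In fold terms the single-housed level was 0.702 times the group-housed level, with an interval of 0.511 to 0.964. With 49 to 82 counts per library, counting alone gives a coefficient of variation of 12.5%, while that between libraries was 12.2% in the single-housed and 19.7% in the group-housed group.

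Stat2 encodes the subunit that carries the activating domain of the interferon-induced complex. The gene lies on chromosome 10 (127707632 to 127729905, mm9). It had 33.6, 32.8 and 33.9 CPM in single-housed replicates 1, 2 and 3, against 35.7, 32.0 and 28.7 CPM in their group-housed counterparts. The single-housed values lay inside the range of the group-housed ones. The log2 difference was 0.06 (SE 0.0941), and with 903 to 1131 counts per library its 95% interval was the narrowest of the 10 genes, from 0.898-fold to 1.21-fold. Irf9, the DNA-binding partner of Stat2, had a log2 difference of −0.10 (SE 0.103). Irf3, which starts interferon transcription and needs no induction, had one of 0.02 (SE 0.102).

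Ifih1 encodes the cytoplasmic sensor MDA5, which binds long double-stranded RNA. The gene lies on chromosome 2 (62433850 to 62484312, mm9). It had 4.55, 5.47 and 4.77 CPM in single-housed replicates 1, 2 and 3, against 5.22, 5.21 and 5.43 CPM in their group-housed counterparts. Single-housed replicates 1 and 3 lay below all group-housed ones, and single-housed replicate 2 above them. This gave a log2 difference of −0.10 (SE 0.124, 95% interval −0.38 to 0.18). Of the 14 sensor and adaptor genes tested, Ifih1 included, 9 were lower and 5 higher, none passed the threshold, and the median log2 difference was −0.08. The sensor for related RNA, Ddx58 (RIG-I), had a log2 difference of −0.14 (SE 0.125). Tlr7, an endosomal receptor for single-stranded RNA, had the smallest p in that list. It had 3.11, 2.84 and 3.33 CPM in single-housed replicates 1, 2 and 3, against 3.72, 3.54 and 4.10 CPM in their group-housed counterparts, which do not overlap (log2 difference −0.29, SE 0.140; edgeR adjusted p = 0.9999).

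Isg15 encodes a ubiquitin-like protein that is joined to other proteins after interferon stimulation. The gene lies on chromosome 4 (155573533 to 155574927, mm9). It had 1.62, 1.67 and 1.50 CPM in single-housed replicates 1, 2 and 3, against 1.92, 1.77 and 1.84 CPM in their group-housed counterparts. All single-housed libraries lay below all group-housed ones, by a narrow margin. This gave a log2 difference of −0.20 (SE 0.163, 95% interval −0.58 to 0.17). The gene had only 50 to 58 counts per library, so counting error alone gives a coefficient of variation of 13.7%. The observed ones were 5.59% for the single-housed and 4.04% for the group-housed libraries, closer together than counting error would place them.

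Usp18 encodes the protease that removes ISG15 from proteins and also dampens signalling at the receptor. The gene lies on chromosome 6 (121195924 to 121220935, mm9). It had 0.947, 0.538 and 1.17 CPM in single-housed replicates 1, 2 and 3, against 0.601, 0.884 and 0.921 CPM in their group-housed counterparts. The highest and the lowest of the 6 values were both single-housed. The log2 difference was 0.13 (SE 0.322), and with 16 to 39 counts per library its 95% interval ran from 0.659-fold to 1.82-fold. Counting alone gives a coefficient of variation of 19.4%, while that between libraries was 36.2% after single housing and 21.8% after group housing. Its sign turned without single-housed replicate 3 (−0.12) or group-housed replicate 1 (−0.03). The enzymes that attach ISG15 had log2 differences of 0.09 (SE 0.134) for Uba7, the activating enzyme, −0.03 (SE 0.158) for Ube2l6, the conjugating enzyme, and −0.08 (SE 0.192) for Herc6, the mouse ligase. The last pair was added to the named genes after their values were seen.

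The 3 Ifit genes, whose proteins bind foreign RNA or one another to block its translation, stand in a cluster on chromosome 19. Ifit1 (34715379 to 34724499, mm9) had 2.20, 2.15 and 1.92 CPM in single-housed replicates 1, 2 and 3, against 1.95, 1.997 and 2.06 CPM in their group-housed counterparts. Ifit2 (34625184 to 34651024) had 10.8, 11.3 and 12.3 CPM in single-housed replicates 1, 2 and 3, against 9.88, 12.2 and 12.5 CPM in their group-housed counterparts. Ifit3 (34658019 to 34663472) had 4.49, 4.78 and 5.88 CPM in single-housed replicates 1, 2 and 3, against 4.92, 5.17 and 5.59 CPM in their group-housed counterparts. The groups overlapped for all 3 genes. The log2 differences were 0.06 (SE 0.155) for Ifit1, −0.01 (SE 0.118) for Ifit2 and −0.05 (SE 0.141) for Ifit3. The sign of Ifit2 turned in 5 and that of Ifit3 in 4 of 15 alternative analyses. Between Ifit3 and Ifit1 the count table lists further family members under older symbols, which RefSeq now names Ifit1bl1, Ifit3b and Ifit1bl2, with 101 to 153, 73 to 112 and 22 to 41 counts per library. Ifit3b is a close copy of Ifit3, so reads shared by the pair may have been dropped or split, and their separate levels are uncertain. No member's exons overlapped those of another gene in the table, on either strand.

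Oasl2 encodes an antiviral protein of the oligoadenylate synthetase family. The gene lies on chromosome 5 (115346943 to 115362254, mm9). It had 3.05, 2.27 and 2.79 CPM in single-housed replicates 1, 2 and 3, against 1.99, 2.36 and 1.68 CPM in their group-housed counterparts. The groups overlapped through replicate 2 of each, while the other 2 single-housed libraries were above all group-housed ones. The log2 difference was 0.43 (SE 0.191, 95% interval −0.01 to 0.86; edgeR unadjusted p = 0.0529, adjusted p = 0.9999), or 1.34-fold higher in single-housed libraries. Oas1a, a synthetase gene of the same family, had 8 to 11 counts after single housing and 9 to 13 counts after group housing, with a log2 difference of −0.40 (SE 0.320), the sign opposite to Oasl2.

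Eif2ak2 encodes PKR, the kinase that stops translation when it binds double-stranded RNA. The gene lies on chromosome 17 (79251890 to 79281912, mm9, minus strand). It had 4.34, 4.10 and 4.20 CPM in single-housed replicates 1, 2 and 3, against 3.61, 3.77 and 3.43 CPM in their group-housed counterparts. Every single-housed library was above every group-housed one, and both groups were tight, with a coefficient of variation of 2.86% for the single-housed and 4.66% for the group-housed libraries. Counting alone gives 9.02%, so spreads this small are below what counting error would produce on average. The log2 difference was 0.23 (SE 0.124, 95% interval −0.06 to 0.51; edgeR unadjusted p = 0.104, adjusted p = 0.9999), or 1.17-fold higher in single-housed libraries.

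**Figure D3:**
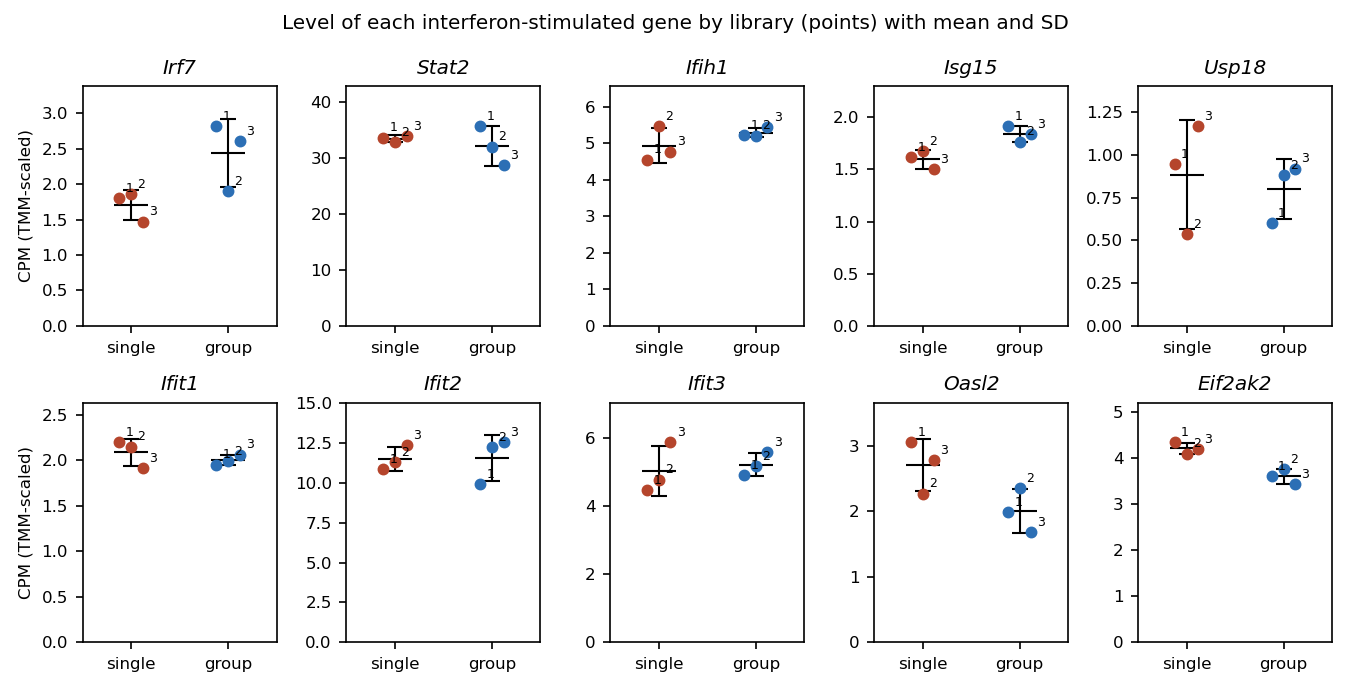
Level of each of the 10 genes in CPM (vertical axis from 0), 1 point per library with its replicate number, single-housed left and group-housed right; the bars give the mean and SD (n = 3 each). Irf7 and Isg15 sit lower and Eif2ak2 higher in every single-housed library, while the other 7 genes overlap.

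Genes with opposite signs can be set against each other within a library, which removes any effect of scaling. The ratio of Irf7 to Eif2ak2 counts was 0.416, 0.453 and 0.350 in single-housed and 0.781, 0.504 and 0.759 in group-housed replicates 1, 2 and 3. The ratio of Irf7 to Oasl2 counts was 0.590, 0.816 and 0.527 in single-housed and 1.42, 0.806 and 1.55 in group-housed replicates 1, 2 and 3. Group-housed replicate 2 lay nearest to the single-housed libraries in both ratios, and for Irf7 to Oasl2 it was inside their range. As the pairs were chosen for their opposite signs, these ratios are a description without a test. Irf7 and Isg15 shared their highest library, group-housed replicate 1, and their lowest, single-housed replicate 3. Oasl2 and Eif2ak2 likewise shared their highest, single-housed replicate 1, and their lowest, group-housed replicate 3. For Isg15 and Eif2ak2 the spread within each group was below counting error, so nothing is read from their order within a group. Summed over the 10 genes, the level was 68.1 ± 1.59 CPM after single housing and 66.9 ± 1.97 CPM after group housing (SD, n = 3 each), of which Stat2 held 48.5% of the counts.

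**Figure D4:**
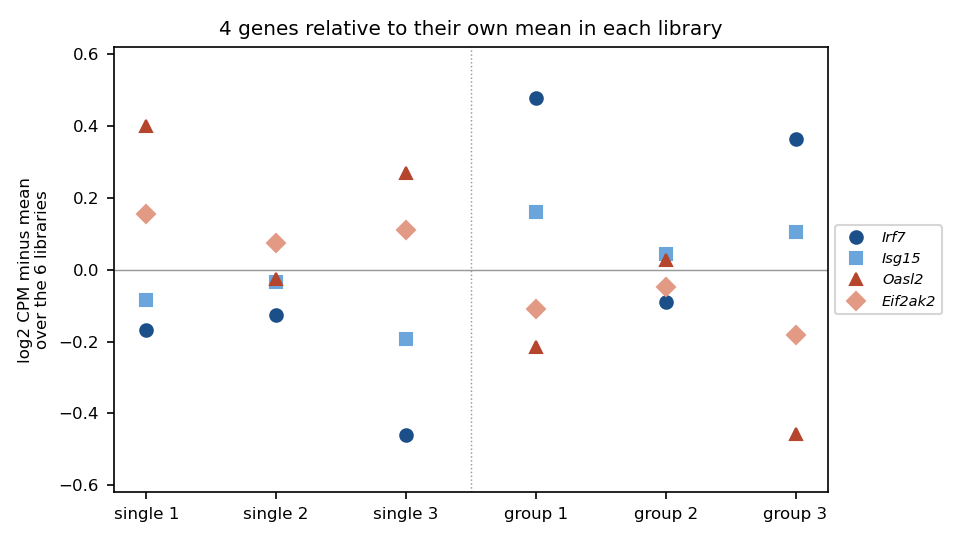
Log2 CPM of Irf7, Isg15, Oasl2 and Eif2ak2 in each library minus the gene's mean over the 6 libraries (vertical axis), with the single-housed libraries left of the dotted line. Irf7 and Isg15 are below and Eif2ak2 above its mean in each single-housed library, and the 4 genes lie closest together in group-housed replicate 2.

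The genes with patterns most like these were found among 13776 genes with a mean of at least 1 CPM, by the Pearson correlation of log2 CPM over the 6 libraries. For Irf7 they were Fam134c (r = 0.989), Scd3 (r = 0.985) and Agpat5 (r = 0.976). For Oasl2 they included Sema4b (r = 0.988) and Camsap3 (r = 0.978), and for Eif2ak2 Akap1 (r = 0.983), Pick1 (r = 0.979) and again Sema4b (r = 0.975). None of those named belongs to the interferon lists. With 6 points and so many genes compared, such values describe these libraries, which also differ in depth and striatal marker content, and carry no test.

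Microglial markers, like Irf7 and Isg15, were mostly lower after single housing. Of 13 such markers, 11 were lower after single housing and 2 higher, none passed the threshold, and their sum was 582 to 592 CPM after single housing and 552 to 703 CPM after group housing. The top of that range was group-housed replicate 1, where Irf7 and Isg15 were also highest in CPM. Isg15 had 51 raw counts there, against 54 and 58 in group-housed replicates 2 and 3. It ranked highest only after scaling, by less than its counting error. That library also had the highest sum of oligodendrocyte markers, 5251 CPM. Of these 8 markers, 7 were lower and 1 was higher after single housing. With the microglial mean as a covariate the log2 differences were −0.43 (SE 0.187) for Irf7 and −0.19 (SE 0.174) for Isg15. Without group-housed replicate 1 Irf7 differed by −0.40 (SE 0.213). The part of microglia or oligodendrocytes in the differences of Irf7 and Isg15 was not tested. Endothelial markers were higher for 7 of 10 genes, with a sum of 199.5 to 241 CPM after single housing and 193 to 216 CPM after group housing. Single-housed replicate 1, highest for Oasl2 and Eif2ak2, was also highest here. That library had the highest sum of striatal markers too, 1897 CPM. Eif2ak2 had 142, 137 and 140 raw counts in single-housed replicates 1, 2 and 3, apart by less than counting error. Meningeal fibroblast markers were higher for 7 of 8 genes, of which none passed the threshold. Their sum was 127.8 to 135 CPM after single housing and 118 to 126.9 CPM after group housing, which do not overlap, by a narrow margin. Pdgfra, the 1 lower gene, made up the largest part of it, with 54.3 CPM after single housing and 54.9 CPM after group housing. The part of the endothelial and meningeal lists in the differences of Oasl2 and Eif2ak2 was not tested. With the striatal mean as a covariate the log2 differences were −0.64 (SE 0.193) for Irf7, 0.43 (SE 0.209) for Oasl2 and 0.22 (SE 0.141) for Eif2ak2. Blood leukocyte markers other than Cd4 had at most 9 counts in any library for each of 10 genes. Cd4 had 774, 313 and 34 counts in single-housed and 247, 47 and 60 counts in group-housed replicates 1, 2 and 3. Its log2 difference was 1.44 (SE 0.944), and its highest counts were in the 3 libraries with high striatal markers.

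The wider pathway gave no common direction. Of 85 further genes of the pathway lists with a row, 62 were tested, of which 28 were higher and 34 lower after single housing (median log2 difference −0.02), and none passed the threshold with edgeR (0 at an unadjusted p under 0.05), with DESeq2 or with limma-voom. The groups did not overlap for 4 of the 62 (6.45%, against 4.86% of all genes tested). All 4 were lower in single-housed libraries, and of all genes tested 2.40% had the single-housed libraries below and 2.46% above. The share is near that over all genes, and nothing is read from it or from the direction of the 4 genes. These were Tlr7, Oas1a, Slfn2, a regulator of immune cell quiescence, and Ly6e, a surface protein that blocks the entry of some viruses and was named after its values were seen. Slfn2 had 1.83, 1.56 and 1.74 CPM in single-housed replicates 1, 2 and 3, against 1.95, 2.49 and 1.94 CPM in their group-housed counterparts (log2 difference −0.32, SE 0.179). Ly6e was abundant, with 262 ± 11.7 CPM after single housing and 279 ± 13.5 CPM after group housing (−0.09 on the log2 scale, SE 0.0728, n = 3 each).

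Among the 27 other targets tested, Eif2ak2 included, 11 were higher and 16 lower, with a median log2 difference of −0.03. Rsad2, which encodes the antiviral enzyme viperin, had a log2 difference of −0.16 (SE 0.233), and Bst2, which encodes tetherin, one of −0.06 (SE 0.201). Mx1, whose product blocks influenza viruses and is defective in most laboratory strains, had 4 to 12 counts after single housing and 7 to 10 counts after group housing and was not tested. Among the 6 negative regulators, Usp18 included, 3 were higher and 3 lower. Socs1, an inhibitor of the kinases, had the smallest p of these, with 0.574 ± 0.215 CPM after single housing and 0.782 ± 0.266 CPM after group housing (−0.43 on the log2 scale, SE 0.364, n = 3 each).

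**Figure D5:**
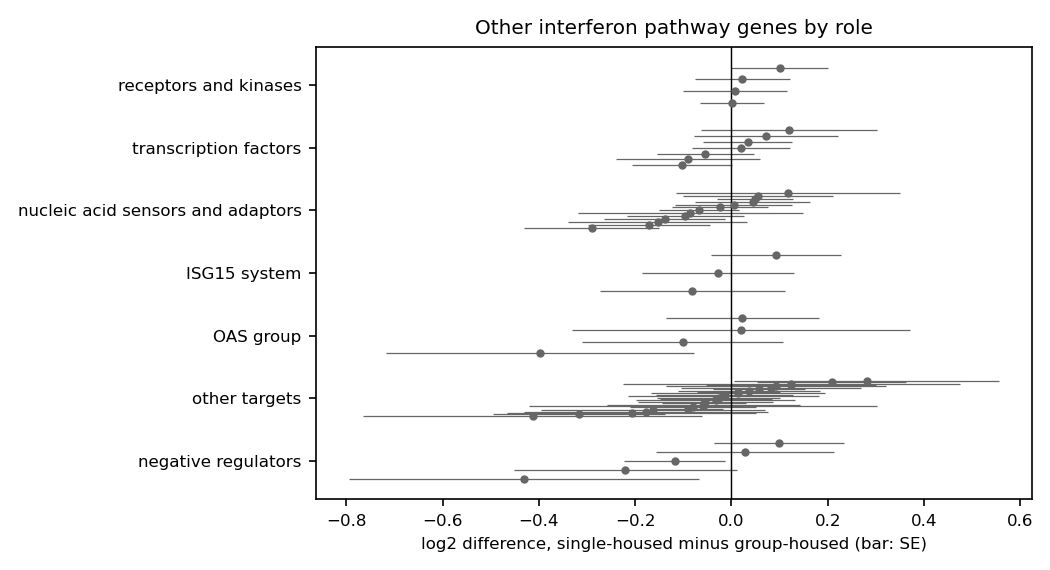
Log2 differences (horizontal axis, single-housed minus group-housed) of the tested pathway genes other than the 10 members, grouped by role, 1 point per gene with its SE from edgeR's fit. The points scatter on both sides of 0 in most roles, from −0.43 to 0.28, and none passed the threshold.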

How the data were processed

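Polyadenylated RNA of the prefrontal cortex was sequenced from stranded libraries (TruSeq Stranded mRNA), per the labels' protocols. The deposited table holds a raw read count for each gene and library, made with FastQC, STAR and featureCounts on build mm9 per the submitters' processing notes. For tool versions, gene annotation and strand setting, the answer is not given in the sources used here. No normalization was applied to the deposited counts. Samples were grouped by the housing label.

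Genes were tested with edgeR 4.0.16 (R 4.3.3) on the counts as deposited, by the quasi-likelihood F-test with TMM and filterByExpr (minimum count 10, minimum total 15), which kept 15258 of 23284 genes. Standard errors and 95% intervals were computed from the F statistic; the threshold was an adjusted p of 0.05. Log2 CPM for list means and correlations used a prior count of 2. Promoter sequences are from RefSeq (GRCm38.p6).

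The members, gene lists and tests were chosen with earlier results of these data known. Named genes were the 10 members, 12 pathway genes fixed by name (Usp18 is also a member), the non-member with the smallest p in each pathway list and the 3 genes most correlated with Irf7, Oasl2 and Eif2ak2; some of these are not reported here. Alternatives were DESeq2 size factors, other filters, each library left out, a replicate block, limma-voom (limma 3.58.1), DESeq2 1.42.0 and striatal or microglial marker means as covariates. Leaving out the 3 libraries with high striatal markers was added after seeing the data.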

Additional observations from a re-analysis of the deposited data

How the results depend on the processing

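No member and no further pathway gene was called under any of the 15 alternatives run. Irf7, Oasl2, Eif2ak2, Isg15 and Ifih1 kept their sign in all of them, with ranges of −0.66 to −0.40, 0.31 to 0.56, 0.19 to 0.26, −0.27 to −0.16 and −0.17 to −0.05 (log2), and for genes whose groups do not overlap the sign cannot turn when a library is left out. Usp18 was below the filter of a mean CPM above 1 and has no value there. With the striatal covariate Ifit2 differed by 0.076 and Ifit3 by 0.038. When the 3 libraries rich in striatal markers were left out, 1 single-housed library remained, assumed to vary like the 2 group-housed ones, and Ifit1 differed by −0.080 and Ifit3 by 0.13. Leaving out 1 library gave ranges of −0.11 to 0.053 for Ifit2, −0.17 to 0.026 for Ifit3, −0.12 to 0.40 for Usp18 and −0.017 to 0.14 for Stat2. The cause of these turns was not tested. Over all genes, DESeq2 called 8 genes, the microglial covariate fit 2 and the fit without the 3 libraries 4, against 0 in the main analysis, and leaving out 1 library called 0 to 1. The number of members whose groups did not overlap was 3 to 6 when 1 library was left out, where the share over all genes tested was 8.99% to 22.7%, against 4.86% with all 6 libraries.

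The replicate numbers of the titles were not shown to pair the libraries: the correlations of same-numbered libraries' deviations from their group means were 0.27, −0.32 and 0.17, and not every library correlated best with its own number. With the replicate number as a block, 0 genes were called, and Irf7 differed by −0.50 (SE 0.214). Usp18 had the fewest counts of the members, 16 to 39 per library.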
